A study of Mus musculus with 26 samples.

Results

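MHC class I and peptide loading genes were followed in TCRTg101, CD8+ T cells with a transgenic receptor that recognizes, on H2-Kb, an antigen of the murine leukemia line C1498. The 10 genes were chosen by name: H2-K1, H2-D1, B2m, Tap1, Tap2, Tapbp, Nlrc5, Erap1, H2-Q7 and H2-T23. All 10 were found among 35944 genes with values in the files, and all 10 passed the filter on low counts. RNA-seq had been performed on sorted TCRTg101 in 15 libraries, of which 14 were low-input libraries in 7 groups. Of the 3 control libraries 2 were of naive TCRTg101 at day 0 and 1 was of TCRTg101 from untreated mice at day 18, so the control group joined cells of different history. The liver libraries came from leukemia-bearing mice and comprised 2 early (both day 7), 3 mid (2 at day 13 and 1 at day 14) and 2 late libraries (day 18 and day 16). There were also 2 early spleen libraries (both day 7), 1 mid spleen library (day 14) and 1 library of undivided cells from spleen at day 18, which had kept a high level of the division dye CellTrace Violet. The remaining library was primed with oligo-dT from naive TCRTg101 and entered no test. Its label gives no day. From its name it was taken to be of the same cells as the first control library, at day 0.

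The labels give strain C57BL/6, an age of 6 weeks and a wild type genotype for every library. The study's methods state that Tg101 donors carried the rearranged receptor transgene on a Rag2-/- background, and that leukemia was given i.v. 1 day after transfer. Control and undivided cells were from spleen according to the labels, and in liver against control the effects of leukemia and tissue cannot be told apart. Sample titles carry 1 of 2 series names, TG (3 low-input libraries: 1 control, 1 mid and 1 late) and XC (11 libraries), and the series was taken as the sequencing batch. Every edgeR and DESeq2 fit carried the series as a term, apart from the alternative without it. Depth ranged from 22918996 to 71358287 estimated counts per low-input library (median 34349318), and each of the 10 genes had at least 3363 estimated counts in every one of them. Counting error was therefore small, and with 1 to 3 libraries a group the spread between libraries was estimated from few values. Nothing in the labels says whether libraries of a group came from separate mice, so p-values measure the spread between these libraries.

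Class I molecules display peptides from the cytosol to CD8+ T cells. Proteasomes cut proteins into peptides, the TAP transporter carries these into the endoplasmic reticulum, an aminopeptidase there trims them, and tapasin holds TAP beside the empty heavy chain and light chain until a peptide fits. Nearly all nucleated cells, T cells included, carry class I, and interferons raise it through factors that bind the promoters of these genes.

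The 4 heavy chain genes among the 10 resemble each other closely, which matters here because kallisto, the program the authors used, divides reads among matching transcripts. H2-K1 (chr17:33996017-34000347, minus strand, ENSMUSG00000061232.16) and H2-D1 (chr17:35262730-35267499, plus strand, ENSMUSG00000073411.11) encode the classical heavy chains. H2-Q7 (chr17:35439155-35443773, plus strand, ENSMUSG00000060550.16) encodes the non-classical heavy chain Qa-2, and H2-T23 (chr17:36029773-36032855, minus strand, ENSMUSG00000067212.8) encodes Qa-1, a ligand of receptors on natural killer and CD8+ T cells. All coordinates of genes are GRCm38. Over aligned coding bases, H2-K1 matched H2-D1 at 91.5% (92 of 1080 differed), H2-Q7 at 88.3% (117 of 996) and H2-T23 at 82.1% (192 of 1071). Stretches of 60 coding bases were sought within 1 exon that aligned without gaps in all 4 genes. The stretch in which H2-K1 and H2-D1 differed most lay in exon 3. It is shown because its bases tell the 4 genes apart. Other H2 genes were not compared in this stretch. Capitals mark bases that differ from H2-K1.
H2-K1 (chr17:33999330-33999389, minus strand): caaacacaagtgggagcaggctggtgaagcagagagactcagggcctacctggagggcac
H2-D1 (chr17:35263996-35264055, plus strand): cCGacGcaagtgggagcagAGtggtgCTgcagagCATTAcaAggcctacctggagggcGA
H2-Q7 (chr17:35440066-35440125, plus strand): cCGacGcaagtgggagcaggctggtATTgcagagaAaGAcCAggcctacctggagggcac
H2-T23 (chr17:36031697-36031756, minus strand): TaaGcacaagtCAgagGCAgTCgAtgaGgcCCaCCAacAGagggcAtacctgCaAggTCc
In this stretch H2-D1 differed from H2-K1 at 15 bases, H2-Q7 at 11 and H2-T23 at 23. The stretch in which H2-K1 and H2-D1 were most alike, also in exon 3, is shown because a read from it cannot tell them apart.
H2-K1 (chr17:33999397-33999456, minus strand): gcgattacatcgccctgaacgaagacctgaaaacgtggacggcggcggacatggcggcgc
H2-D1 (chr17:35263929-35263988, plus strand): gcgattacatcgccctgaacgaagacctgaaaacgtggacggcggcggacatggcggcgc
H2-Q7 (chr17:35439999-35440058, plus strand): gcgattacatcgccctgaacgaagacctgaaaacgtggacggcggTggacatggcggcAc
H2-T23 (chr17:36031764-36031823, minus strand): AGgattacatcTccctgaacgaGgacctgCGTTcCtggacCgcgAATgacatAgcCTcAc
Here H2-D1 differed at 0 bases, H2-Q7 at 2 and H2-T23 at 17.

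Shared sequence was counted as words of 31 bases in the main transcript of a gene that also occur in a transcript of another gene. H2-Q7 shared 52.6% of its words, with H2-Q5 (31.8%) and H2-Q6 (25.8%) foremost, and H2-T23 shared 49.3%, with H2-T-ps (25.3%) foremost. H2-K1 shared 23.3% and H2-D1 27.7%. Erap1 shared 14.3%, all of which occur in Cast, a neighbor on chromosome 13. Tap1 and Tap2 shared 1.70% and 1.74%, Tapbp shared 3.28%, and B2m and Nlrc5 shared 0. By this measure the counts of H2-Q7 and H2-T23 may be the least certain of the 10. The error of the counts was not measured. For H2-Q7 and H2-Q6, which matched at 95.4% of coding bases, the most different 60 bases, in exon 2, are shown with capitals at the 10 bases of H2-Q6 that differ.
H2-Q7 (chr17:35439463-35439522, plus strand): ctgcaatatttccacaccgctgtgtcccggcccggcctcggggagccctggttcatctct
H2-Q6 (chr17:35425119-35425178, plus strand): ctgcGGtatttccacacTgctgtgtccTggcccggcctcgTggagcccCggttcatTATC

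**Figure D1:**
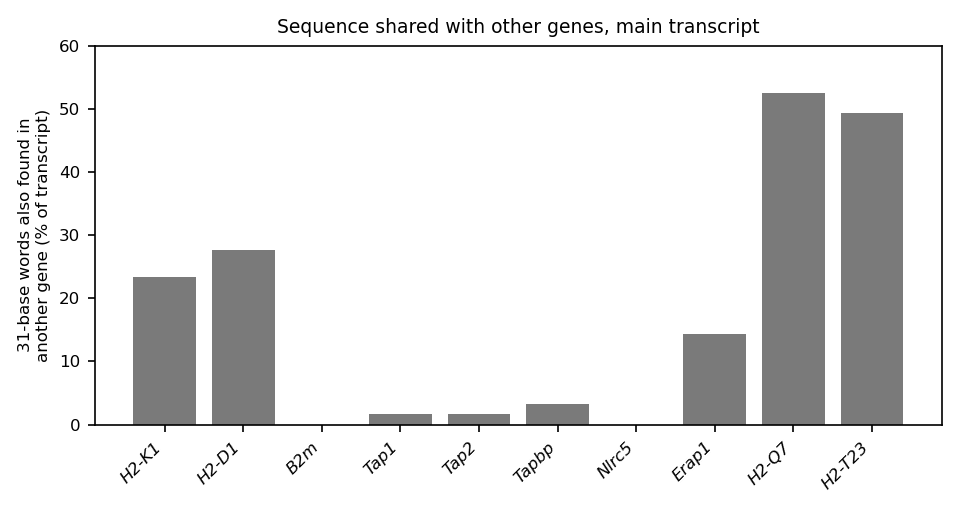
Bars give, for each of the 10 genes, the percent of 31-base words of its main transcript that also occur in a transcript of another gene. The bars of H2-Q7 (52.6%) and H2-T23 (49.3%) are the tallest, and B2m and Nlrc5 stand at 0.

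Levels were compared between genes in TPM, which corrects for transcript length. H2-K1 had the highest median over the 14 low-input libraries at 3331 TPM, followed by B2m (2438 TPM) and H2-D1 (2418 TPM). H2-Q7 (733 TPM), H2-T23 (411 TPM) and Tapbp (355 TPM) came next. Tap1 (164 TPM), Tap2 (159 TPM), Erap1 (80.9 TPM) and Nlrc5 (62.1 TPM) were lowest. H2-D1 exceeded H2-Q7, H2-Q7 exceeded H2-T23, Tapbp exceeded Tap1, and Tap2 exceeded Erap1 in 14 of 14 libraries. Other neighbors were not ordered so firmly. H2-K1 exceeded B2m in 13 libraries, Erap1 exceeded Nlrc5 in 12 and H2-T23 exceeded Tapbp in 9. B2m exceeded H2-D1 in only 3 of 14 libraries and Tap1 exceeded Tap2 in 6, so the medians do not order these pairs.

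Within a gene, levels are given from here on as CPM, counts scaled to library size with TMM factors, in the order of the libraries listed above, with the TG library first in control, mid and late. The ratio of the highest to the lowest of the 14 low-input libraries ranged from 1.73 for H2-K1 to 6.01 for Nlrc5. The SD of log2 CPM over these libraries had a median of 0.32 for the 10 genes and 0.62 for all 15465 genes tested. A lower SD than that of Tap1 was found in 5.15% of these genes, and a lower SD than that of Nlrc5 in 67.1%. The 10 genes are abundant, each with a mean log2 CPM above that of 90.8% to 99.9% of these genes, and the 1417 genes at least as abundant as Erap1, the least abundant of the 10 on this scale, had a median SD of 0.47.

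Some libraries held RNA of other cells. Both day 0 controls had myeloid and dendritic cell markers at a summed 1013 and 612 CPM, against 69.4 CPM in the day 18 control. These markers summed to 251, 94.2 and 115 CPM in mid liver and to 334 and 228 CPM in late liver. The sum was above the day 18 control in all 5 libraries, but most of it was Cst3 (202, 74.1, 93.8, 278 and 176 CPM). Itgax and Fcer1g were also above that control in all 5. Csf1r and Flt3 were below it in all 5, and Lyz2, Cd14 and Itgam lay on either side. Erythroid markers summed to 5220.2, 20346 and 136 CPM in the 3 controls and to 215, 5.59 and 17.3 CPM in mid liver. The first control also had 138 CPM of Cd5l and 56.0 CPM of Marco, both macrophage genes. Hepatocyte markers, with Alb the most abundant, summed to 163, 16.9 and 2.37 CPM in mid liver and 266 and 53.8 CPM in late liver, and to under 1 CPM in each control. CD8 T cell markers summed to at least 16048 CPM in every low-input library. The part of other cells' RNA in the values of the 10 genes was not tested. In bulk RNA, fewer cells of a type and less RNA per cell cannot be told apart.

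The first question was whether class I genes changed in liver TCRTg101 as leukemia advanced. By the quasi-likelihood test of edgeR, adjusted over all genes by Benjamini-Hochberg, 0 of the 10 genes passed an adjusted p of 0.05 at the mid or at the late time point. In the same fit 4566 of 14616 genes (31.2%) passed at the mid time point, 2533 higher (17.3%) and 2033 lower (13.9%). At the late time point 5482 genes (37.5%) passed, 2900 higher (19.8%) and 2582 lower (17.7%). With no scaling beyond library size 4699 genes (32.1%) were called at the mid time point, 1778 higher and 2921 lower, and 5653 (38.7%) at the late time point, 1895 higher and 3758 lower. None of the 10 reached an unadjusted p of 0.05 in either comparison, while 6831 of all genes did at the mid and 7335 at the late time point. DESeq2 called 0 of 10 in both, beside 5456 of all genes (37.3%) at the mid and 6217 (42.5%) at the late time point. The median absolute log2 fold change of the 10 was 0.22 against 0.64 over all genes at the mid time point, and 0.056 against 0.76 at the late time point. Over the 1417 genes at least as abundant as Erap1 it was 0.50 and 0.61, and 36.7% and 40.9% of these were called. All 10 mid intervals, at 95%, lay within a log2 fold change of 1 either way, which held for 32.8% of all genes, and 9 of 10 late intervals did, against 24.9%. Over the 1417 abundant genes these shares were 51.2% and 40.9%. The exception was H2-Q7, with a late interval that reached -1.02. Counts over all genes depended on single libraries. Without the first control 1 gene (Ajuba) was called at the mid time point, without the second 1 gene (Gm10800), and without the first or the third mid library 0 were, the 2 names being given after their values were seen. Without the third control 2361 genes were called at the mid time point. Without the first control 149 genes were called at the late time point, without the second 3399, and without either late library 0. The 10 genes gave 0 calls in each of these fits. Against the day 18 control alone they also gave 0, but there 1 of 13795 genes (Gm10800, 0.00725%) was called at the mid and 0 (0%) at the late time point, so this count does not set the 10 apart from other genes.

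**Figure D2:**
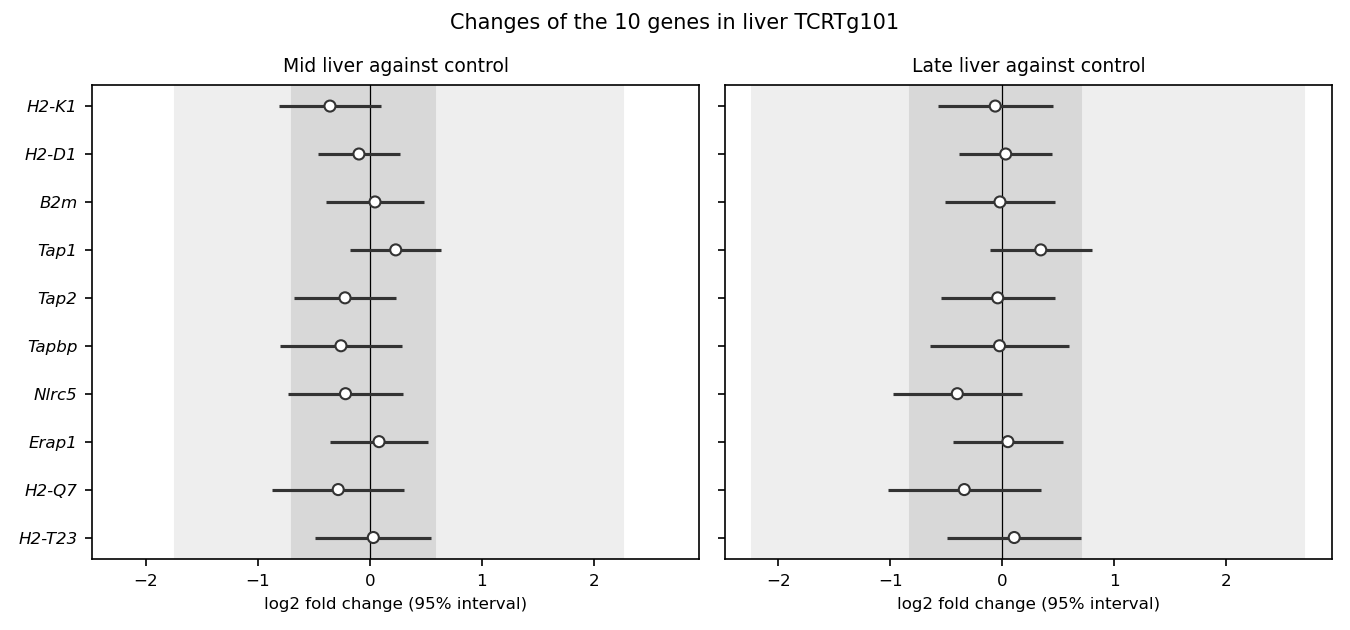
Points give the log2 fold change of each gene in mid liver (left) and late liver (right) against control, with 95% intervals, and open points mark adjusted p of 0.05 or more. The dark band spans the 25th to the 75th percentile of all genes tested and the light band the 5th to the 95th percentile, and every point is open and lies inside the dark band.

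The classical heavy chain H2-K1, which presents the antigen that TCRTg101 recognize when it is carried by leukemia cells, had 4628, 3505 and 4188 CPM in the 3 controls, 2938 and 3996 CPM in early liver, 3245, 3532 and 2909.8 CPM in mid liver and 5044 and 3301 CPM in late liver. The first and the third mid liver library lay below the lowest control and the second slightly above it, and the late libraries fell on either side of the controls. The means were 4107 ± 566 (SD, n = 3) CPM for control, 3229 ± 312 (SD, n = 3) CPM for mid liver and 4173 ± 1232 (SD, n = 2) CPM for late liver. The log2 fold change was -0.36 (95% interval -0.81 to 0.10, adjusted p = 0.189) at the mid and -0.063 (95% interval -0.58 to 0.45, adjusted p = 0.841) at the late time point. With no scaling beyond library size, which moved the median of all genes to -0.25 at the mid and -0.32 at the late time point, the mid change of H2-K1 was -0.55 (adjusted p = 0.0627), the smallest adjusted p of any of the 10 in any fit.

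H2-D1 had 6044, 4159 and 4709.7 CPM in control, 3585 and 4481 CPM in early, 6111, 4191 and 3952 CPM in mid and 7038 and 4223 CPM in late liver. The TG library, the first one listed, was the highest of its group in control, mid and late, and the groups overlapped. The log2 fold change was -0.10 (95% interval -0.46 to 0.27, adjusted p = 0.656) at the mid and 0.030 (95% interval -0.39 to 0.45, adjusted p = 0.906) at the late time point. Summed over H2-K1 and H2-D1, so that reads shared between them cannot move the value, the change was -0.20 (95% interval -0.59 to 0.18, adjusted p = 0.367) at the mid and -0.013 (95% interval -0.45 to 0.43, adjusted p = 0.962) at the late time point.

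B2m (chr2:122147686-122153083, plus strand, ENSMUSG00000060802.8), the light chain shared by all class I molecules, had 2819.8, 1644 and 2288 CPM in control, 1428 and 1769 CPM in early, 3444, 1886 and 1911 CPM in mid and 2825 and 2021 CPM in late liver. The first mid library was the highest and the first early library the lowest, and mid and late values overlapped with the controls. The runs of the first mid library differed by 0.48 on the log2 scale for this gene. The log2 fold change was 0.046 (95% interval -0.39 to 0.48, adjusted p = 0.866) at the mid and -0.021 (95% interval -0.51 to 0.47, adjusted p = 0.946) at the late time point.

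H2-Q7 had 1533, 1176 and 1975 CPM in control, 1367, 1435 and 1119 CPM in mid and 1694 and 956 CPM in late liver. The second late library was the lowest of all, and the groups overlapped. The log2 fold change was -0.28 (95% interval -0.87 to 0.31, adjusted p = 0.413) at the mid and -0.34 (95% interval -1.02 to 0.34, adjusted p = 0.385) at the late time point. Summed over 8 H2-Q genes, which share reads with it, the changes were -0.31 (95% interval -0.89 to 0.27, adjusted p = 0.362) and -0.35 (95% interval -1.02 to 0.31, adjusted p = 0.356). Against the day 18 control alone H2-Q7 changed by -0.77 at the mid and -0.88 at the late time point. Against the day 0 controls alone it changed by 0.0090 and -0.095, so the size of the change depended on the control.

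H2-T23 had 755, 472 and 677 CPM in control, 936, 580.1 and 521 CPM in mid and 1185 and 472 CPM in late liver. The 2 late libraries were the highest and nearly the lowest of these 8. Its log2 fold change was 0.032 (95% interval -0.49 to 0.55, adjusted p = 0.925) at the mid and 0.11 (95% interval -0.49 to 0.70, adjusted p = 0.766) at the late time point. The sign depended on the control. Against the day 18 control alone the changes were -0.42 and -0.40, and against the day 0 controls alone 0.26 and 0.30. Over 21 class I heavy chain genes with H2- symbols, without Cd1d1, Cd1d2 and Mr1, the summed change was -0.21 (95% interval -0.62 to 0.20, adjusted p = 0.379) at the mid and -0.068 (95% interval -0.54 to 0.40, adjusted p = 0.81) at the late time point.

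Tap1 (chr17:34187553-34197225, plus strand, ENSMUSG00000037321.17) and Tap2 (chr17:34203527-34216321, plus strand, ENSMUSG00000024339.12) encode the subunits of the peptide transporter. Tap1 had 289, 333 and 397 CPM in control, 350.1 and 457 CPM in early, 378, 402 and 428 CPM in mid and 425 and 428 CPM in late liver. In TMM-scaled CPM both late libraries lay above all 3 controls, while the mid libraries overlapped with the highest control. The log2 fold change of 0.23 (95% interval -0.17 to 0.64, adjusted p = 0.329) at the mid and 0.34 (95% interval -0.11 to 0.80, adjusted p = 0.197) at the late time point did not pass the test. Within the TG series, with 1 library a group, the late library was higher than the control by 0.56 on the log2 scale, and within the XC series, with 1 late and 2 control libraries, by 0.23. Against the day 18 control alone the late change was 0.10 (adjusted p = 0.856), and against the day 0 controls alone 0.43 (adjusted p = 0.17). Without scaling it was 0.053 (adjusted p = 0.84). In unscaled CPM Tap1 had 307 and 406 in late liver and 296, 345 and 436 in control, which overlapped.

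Tap2 had 369, 396 and 443 CPM in control, 294, 364 and 398 CPM in mid and 353 and 420.1 CPM in late liver, and the groups overlapped. Its log2 fold change was -0.22 (95% interval -0.67 to 0.23, adjusted p = 0.403) at the mid and -0.041 (95% interval -0.55 to 0.47, adjusted p = 0.896) at the late time point.

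Tapbp (chr17:33915899-33929292, plus strand, ENSMUSG00000024308.15), which encodes tapasin, had 572, 722 and 901 CPM in control, 427, 696 and 766 CPM in mid and 591 and 770.2 CPM in late liver. Of these 8 libraries the day 18 control was the highest and the first mid library the lowest, while early liver had 530.4 and 972 CPM, the second of which was above the day 18 control. The log2 fold change was -0.26 (95% interval -0.80 to 0.29, adjusted p = 0.422) at the mid and -0.025 (95% interval -0.64 to 0.59, adjusted p = 0.948) at the late time point.

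Erap1 (chr13:74639568-74693201, plus strand, ENSMUSG00000021583.7), the aminopeptidase that trims peptides in the endoplasmic reticulum, had 82.3, 132 and 157 CPM in control, 63.9, 188 and 173 CPM in mid and 83.6 and 149 CPM in late liver. The first library of each of these groups was far below the others. Its log2 fold change was 0.083 (95% interval -0.35 to 0.52, adjusted p = 0.756) at the mid and 0.050 (95% interval -0.44 to 0.54, adjusted p = 0.868) at the late time point.

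Nlrc5 (chr8:94434356-94527272, plus strand, ENSMUSG00000074151.13), the transactivator of class I genes, varied most of the 10. It had 123, 262 and 334 CPM in control, 309 and 441 CPM in early, 78.4, 317 and 297 CPM in mid and 73.3 and 273 CPM in late liver. The first library of the control, mid and late groups, all of the TG series, lay below every other library. With the series in the model the log2 fold change was -0.22 (95% interval -0.73 to 0.30, adjusted p = 0.47) at the mid and -0.40 (95% interval -0.98 to 0.18, adjusted p = 0.229) at the late time point. Within the TG series the mid and late libraries differed from the control by -0.65 and -0.75, and within the XC series by 0.052 and -0.11. Without scaling, the late change was -0.70 (adjusted p = 0.0859).

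**Figure D3:**
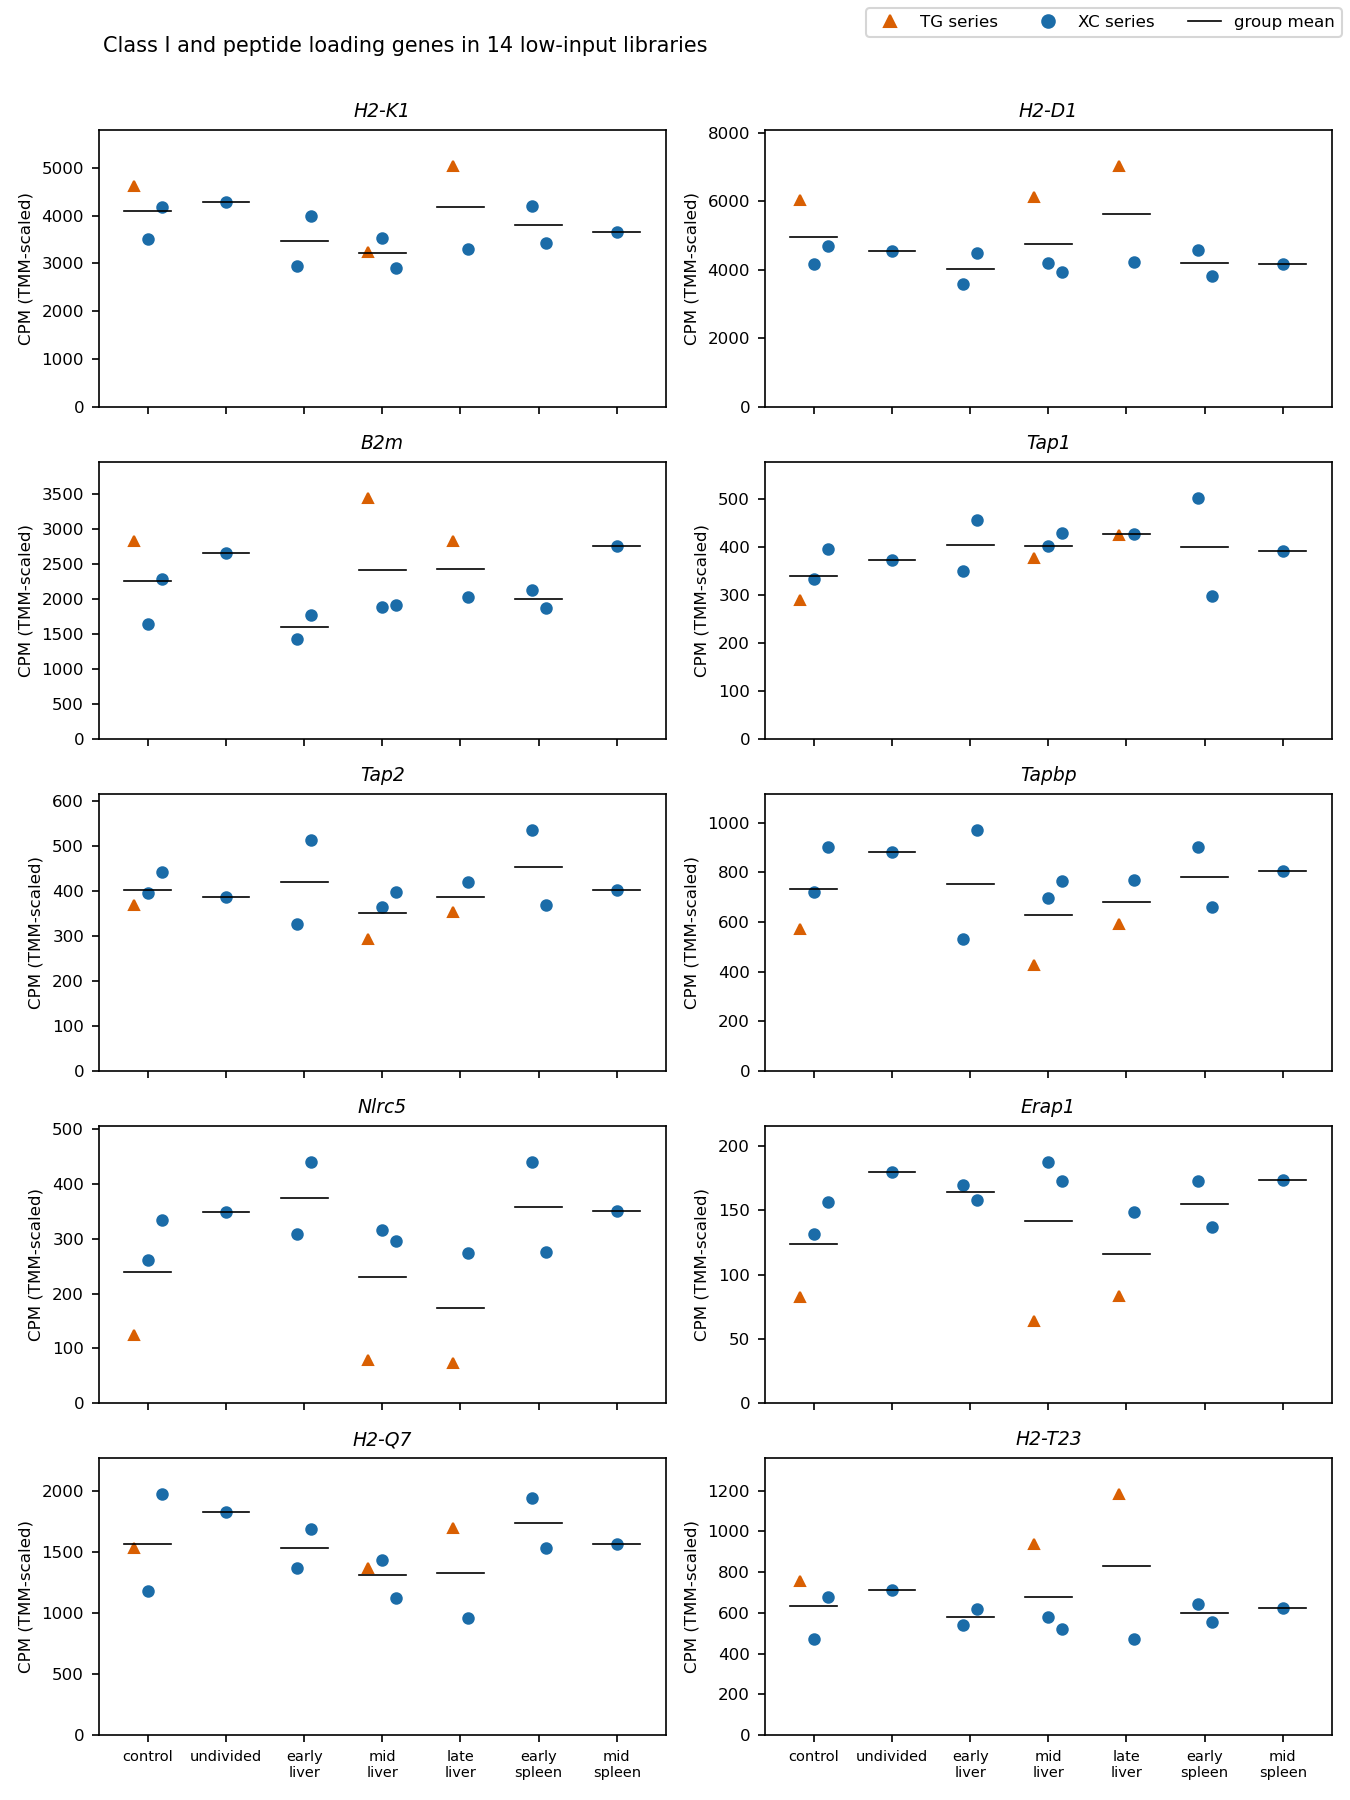
Each panel shows 1 gene, with TMM-scaled CPM of the 14 low-input libraries on the vertical axis and the 7 groups on the horizontal axis. Triangles are TG libraries, circles XC libraries and lines group means, and the triangles of Nlrc5 and Erap1 lie below every circle while those of H2-D1, B2m and H2-T23 lie above every circle.

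The series, in contrast, separated several of the genes. In the fit of 11 libraries, 5 of the 10 genes differed between the TG and the XC series, as did 3834 of 14616 genes (26.2%), 1900 higher in TG and 1934 lower. Nlrc5 ranged over 73.3 to 123 CPM in the 3 TG libraries and 262 to 441 CPM in the 11 XC libraries (medians 78.4 and 317). The TG minus XC difference on the log2 scale was -1.68 (95% interval -2.18 to -1.19, adjusted p = 0.00388). Erap1 was also lower in TG, at 63.9 to 83.6 CPM against 132 to 188 CPM (medians 82.3 and 169.9), a difference of -1.05 (95% interval -1.47 to -0.64, adjusted p = 0.00656). In neither gene did the series overlap.

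H2-T23 was higher in TG, at 755 to 1185 CPM against 472 to 714 CPM (medians 936 and 580.1), a difference of 0.79 (95% interval 0.32 to 1.26, adjusted p = 0.0248). B2m, at 2819.8 to 3444 CPM against 1428 to 2754 CPM (medians 2825 and 1911), differed by 0.64 (95% interval 0.25 to 1.03, adjusted p = 0.0265). H2-D1, at 6044 to 7038 CPM against 3585 to 4709.7 CPM (medians 6111 and 4191), differed by 0.58 (95% interval 0.25 to 0.91, adjusted p = 0.021). In TMM-scaled CPM these 3 genes did not overlap between the series either. In unscaled CPM H2-T23 did not overlap. B2m (TG 2041 to 2896, XC up to 2906) and H2-D1 (TG 4979 to 6207, XC up to 5172) did. In TPM all 3 genes overlapped, so for them the separation depended on the scale. Tapbp differed by -0.57 (95% interval -1.07 to -0.059, adjusted p = 0.0923) and H2-K1 by 0.27 (95% interval -0.14 to 0.68, adjusted p = 0.302), and neither passed the test, nor did Tap1, Tap2 and H2-Q7. In the fit of all 14 low-input libraries 5 of the 10 were called, beside 25.6% of 15465 genes.

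**Figure D4:**
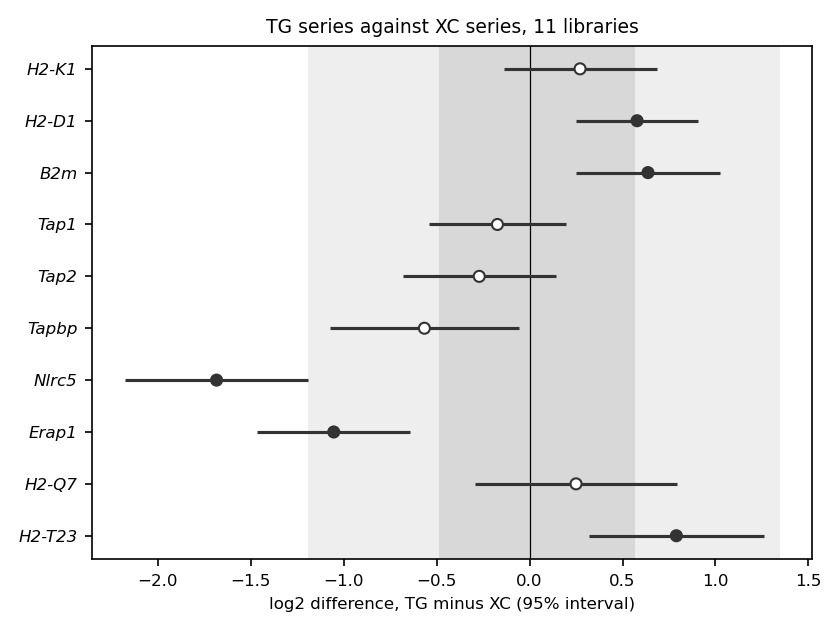
Points give the TG minus XC difference of each gene on the log2 scale with 95% intervals, from the fit of 11 libraries, and filled points mark adjusted p under 0.05. The bands span the 25th to the 75th and the 5th to the 95th percentile of all genes tested, and Nlrc5, at -1.68, lies outside both.

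The series also split the reads of a gene differently over its transcripts. A transcript of H2-K1 took 9.70% to 12.2% of the gene's estimated counts in TG libraries and 0.0583% to 0.387% in XC libraries. A transcript of Nlrc5 took 13.0% to 48.7% in TG and 0 to 0.338% in XC libraries, while the main transcript of Nlrc5 took 29.1% to 57.4% against 65.3% to 87.7%. The main transcript of Tap1 took 54.3% to 63.4% in TG and 31.9% to 44.3% in XC libraries. B2m has 1 transcript in the files, and H2-D1 had 95.5% to 98.0% of its counts on 1 transcript in TG and 95.4% to 97.7% in XC libraries. Library preparation was not compared between series here, and its part in these differences was not tested.

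Early liver, spleen and undivided TCRTg101 were compared next. At the early time point 0 of the 10 genes differed between liver and control, beside 0 of 14616 genes (0.0%). This count of 0 from edgeR stood beside 1497 genes at an unadjusted p under 0.05 and 351 called by DESeq2, and without the second early liver library 1903 genes were called, without the first 1 gene. The 95% intervals of the 10 reached from -0.78 to 0.77. B2m had a log2 fold change of -0.27 (95% interval -0.78 to 0.24, adjusted p = 0.704). In late against mid liver 0 of the 10 were called, beside 0 of 14616 genes (0.0%), with 783 at an unadjusted p under 0.05 and 34 by DESeq2. H2-K1 had the widest difference there at 0.29 (95% interval -0.22 to 0.81, adjusted p = 0.936).

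In spleen, early TCRTg101 had 4193 and 3435 CPM of H2-K1, 2121 and 1868 CPM of B2m and 503 and 298 CPM of Tap1. The first of both libraries was the higher in all 3 genes, and for Tap1 it was also above every control. Against control, 0 of the 10 were called beside 0 of 15465 genes (0.0%; 972 at an unadjusted p under 0.05, 13 by DESeq2, 165 without the first early spleen library). Early liver against early spleen gave 0 of the 10 beside 0 of 15465 genes (0.0%; 1395 at an unadjusted p under 0.05, 64 by DESeq2, 971 without the second early liver library).

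The mid spleen library had 3665 CPM of H2-K1, 2754 CPM of B2m, 392 CPM of Tap1 and 352 CPM of Nlrc5. With 1 library in the group, the test takes it to vary as the other groups do. Against control 0 of the 10 were called beside 1 of 15465 genes (0.00647%), and mid liver against mid spleen gave 0 of the 10 beside 1 gene (0.00647%). B2m had the largest change, 0.52 (95% interval -0.062 to 1.11, adjusted p = 0.841) in mid spleen against control. The 1 gene called in both was Gm14681, named after its values were seen, at 0 CPM in mid spleen.

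Undivided TCRTg101 from leukemia-bearing mice at day 18 had 4282 CPM of H2-K1, 4557 CPM of H2-D1, 2658 CPM of B2m and 349 CPM of Nlrc5. The day 18 control, from untreated mice, had 4188, 4709.7, 2288 and 334 CPM of the same genes. Against all 3 controls 0 of the 10 were called beside 0 of 15465 genes (0.0%), with 174 at an unadjusted p under 0.05 and 0 by DESeq2. The change of B2m was 0.47 (95% interval -0.12 to 1.06, adjusted p = 1). The change from early to mid differed between liver and spleen in none of the 10 genes by edgeR's test of that difference (adjusted p = 1), and 0 had an unadjusted p under 0.05. Over all 15465 genes the same test called 1 (0.00647%), again Gm14681, with 185 at an unadjusted p under 0.05.

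Related genes were then counted in 9 lists, beside the shares of all genes called higher (17.3% at the mid and 19.8% at the late time point) and lower (13.9% and 17.7%). The counts describe the lists and were not tested against these shares. Psmb5, Psmb6 and Psmb7, the constitutive catalytic subunits of the proteasome, all rose at both time points (3 of 3, beside 17.3% and 19.8% of all genes, median log2 fold change 1.11 at the mid and 1.35 at the late time point, against -0.057 and -0.032 over all genes). Psmb5 had 204, 85.6 and 89.5 CPM in control, 781, 169 and 200.2 CPM in mid and 831 and 208 CPM in late liver. The TG libraries were the highest of each group, and the mid and late XC libraries lay above the XC controls but not all above the TG control. Its change was 1.33 ± 0.32 (SE, adjusted p = 0.0234) and 1.51 ± 0.35 (SE, adjusted p = 0.0162).

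Of 6 genes of the immunoproteasome and the proteasome activator, 1 rose at the mid time point (Psme3), near the 17.3% of all genes, and 2 at the late time point, beside 19.8%, and none fell (medians 0.51 and 0.81). The 2 were Psmb8, 1.20 ± 0.24 (SE, adjusted p = 0.0126), and Psmb9, 1.11 ± 0.28 (SE, adjusted p = 0.0187), subunits that replace constitutive ones under interferon. Psmb8 had 435, 435 and 532 CPM in control and 1424 and 861 CPM in late liver, where both libraries lay above all controls. Psme1 and Psme2, subunits of the proteasome activator and the other most abundant genes of this list, had late changes of 0.30 (adjusted p = 0.307) and 0.67 (adjusted p = 0.0504). Of 9 cytosolic and other peptidases 4 rose at the mid time point, beside 17.3% of all genes, and 3 at the late time point, beside 19.8%, and none fell (medians 0.24 and 0.26). Thop1, which degrades peptides that could be presented, changed by 2.40 ± 0.46 (SE, adjusted p = 0.022) and 2.37 ± 0.51 (SE, adjusted p = 0.0148), and Lap3, a leucine aminopeptidase, by 1.55 ± 0.33 (SE, adjusted p = 0.022) and 1.35 ± 0.37 (SE, adjusted p = 0.0238). The most abundant peptidase genes were Tpp2, Nrd1 and Dpp9, with late changes of -0.32, 0.19 and 0.55, none of which passed the test. Of 9 chaperones and editors of class I in the endoplasmic reticulum, 5 rose at the mid time point, beside 17.3% of all genes, and 3 at the late time point, beside 19.8%, and none fell (medians 0.77 and 0.91). Calr, which encodes the calreticulin of the loading complex, had 502, 509.9 and 544 CPM in control, 819.9, 783 and 1032 CPM in mid and 1169 and 827 CPM in late liver, with no overlap between either liver group and the controls. It changed by 0.74 ± 0.25 (SE, adjusted p = 0.0493) and 0.91 ± 0.28 (SE, adjusted p = 0.0337). Hsp90b1 and Erp29 rose at both time points, and Canx and Pdia3, the latter a partner of tapasin, passed the test at the mid time point. Hspa5, the chaperone BiP, had 1.01 (adjusted p = 0.0578) and 0.95 (adjusted p = 0.081).

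Over all 9 lists 15 genes rose and 16 fell at the mid time point and 13 rose and 21 fell at the late time point. With no scaling beyond library size 11 rose and 26 fell at the mid and 10 rose and 28 fell at the late time point. No list gene was called at the mid time point without the first control, the second control, the first mid or the third mid library, fits in which 1, 1, 0 and 0 of all genes were called. None was called at the late time point without the first control, where 149 of all genes were called, or without either late library, where 0 were. With the day 18 control alone no list gene was called, beside 1 of 13795 genes at the mid and 0 at the late time point. The loss of calls was thus shared by all genes and says nothing particular of the lists. Without the series term 3 list genes rose and 10 fell at the mid time point, where 1388 of 14616 genes (9.5%) were called, and 7 rose and 11 fell at the late time point, where 2699 (18.5%) were.

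Of 12 interferon-stimulated genes 2 fell at the mid time point, near the 13.9% of all genes, and 8 at the late time point, beside 17.7%, and none rose (medians -0.89 and -1.14). Ifit3, an antiviral interferon-stimulated gene, had 45.4, 38.7 and 57.6 CPM in control, 20.8 and 68.7 CPM in early, 8.26, 30.8 and 16.5 CPM in mid and 4.49 and 7.71 CPM in late liver. All mid and late libraries lay below all controls, and the early libraries lay on either side. The late change was -2.94 ± 0.62 (SE, adjusted p = 0.0149), and that of Ifit1, of the same family, was -2.56 ± 0.62 (SE, adjusted p = 0.0193). Gbp4, a guanylate-binding protein gene, fell by 1.45 ± 0.34 (SE, adjusted p = 0.0164) on the log2 scale at the late time point. Irgm1 and Igtp, immunity-related GTPase genes and with Gbp4 the most abundant of the list, had late changes of -1.09 (adjusted p = 0.0298) and -0.75 (adjusted p = 0.142). Of 9 interferon receptor and Janus kinase genes, Ifngr2 fell at both time points and Jak1 at the late time point, so that 1 of 9 and 2 of 9 fell, near the 13.9% and 17.7% of all genes. Ifngr1 and Ifnar1, the other most abundant genes of this list, had late changes of -0.33 (adjusted p = 0.472) and -0.32 (adjusted p = 0.334). Ifngr2, a chain of the interferon gamma receptor, had 81.7, 87.0 and 63.1 CPM in control, 7.39, 13.9 and 3.80 CPM in mid and 7.10 and 8.17 CPM in late liver, with no overlap, and changed by -3.24 ± 0.72 (SE, adjusted p = 0.0231) and -3.35 ± 0.85 (SE, adjusted p = 0.0233).

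Of 17 transcription factor genes of class I regulation, 2 rose and 2 fell at the mid time point and 2 rose and 4 fell at the late time point (medians -0.074 and 0.070). Over all genes 17.3% rose and 13.9% fell at the mid and 19.8% rose and 17.7% fell at the late time point, so the counts of this list were not far from those of all genes, and 1 of the falls at each time point was Ciita, described below with class II. Irf1, an interferon-induced activator of class I promoters, had 549, 354 and 421 CPM in control, 202, 216 and 148 CPM in mid and 183 and 129 CPM in late liver, and every mid and late value was below every control. It changed by -1.23 ± 0.30 (SE, adjusted p = 0.0239) and -1.59 ± 0.35 (SE, adjusted p = 0.0145). Rela, a subunit of NF-kB and among the most abundant of the list, had a late change of -0.017 (adjusted p = 0.949). Stat2 and Irf9 fell at the late time point. Nfkb1, a subunit of NF-kB, changed by 1.22 ± 0.27 (SE, adjusted p = 0.0221) and 0.90 ± 0.29 (SE, adjusted p = 0.0406), and Nfyb, a subunit of the CCAAT-binding factor NF-Y, by 0.70 ± 0.16 (SE, adjusted p = 0.0223) and 0.82 ± 0.17 (SE, adjusted p = 0.0131).

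Of the 15 other class I heavy chain genes tested, 4 fell at the mid time point, beside 13.9% of all genes, and 3 at the late time point, near the 17.7% of all genes, and none rose (medians -0.71 at both). H2-Q4 had 47.1, 73.6 and 96.2 CPM in control, 17.1, 57.0 and 37.3 CPM in mid and 16.6 and 46.2 CPM in late liver, changes of -1.08 ± 0.28 (SE, adjusted p = 0.0266) and -1.15 ± 0.32 (SE, adjusted p = 0.0258). The first library, of the TG series, was the lowest in each group, and the mid group overlapped with control. Cd1d1, which presents lipids rather than peptides, had 76.5, 73.6 and 61.8 CPM in control, 17.6, 30.4 and 21.8 CPM in mid and 18.4 and 14.97 CPM in late liver, with no overlap, and changed by -1.63 ± 0.34 (SE, adjusted p = 0.022) and -2.10 ± 0.40 (SE, adjusted p = 0.0116). H2-Q6, H2-T22 and H2-M3, the most abundant of the list, had late changes of -0.35, 0.065 and -0.0082, none of which passed the test. H2-T10 fell at both time points and Cd1d2 at the mid time point.

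Of 9 genes of MHC class II presentation, 7 fell at the mid time point, beside 13.9% of all genes, and 4 at the late time point, beside 17.7%. Cd74, the invariant chain, had 939, 913 and 19.9 CPM in control, 20.3, 13.5 and 9.13 CPM in mid and 41.5 and 19.2 CPM in late liver, so the day 0 controls stood apart from the day 18 control as well as from liver. Ciita, the class II transactivator, which was among the 17 transcription factor genes and fell at both time points, had 13.9, 18.3 and 0.812 CPM in control. The same 2 controls held the myeloid and erythroid RNA described above. H2-Aa and H2-Eb1, chains of class II molecules, had the largest late changes that passed the test, at -5.81 and -5.02. H2-Ab1 and H2-DMa, abundant genes of the list, had late changes of -4.25 (adjusted p = 0.0603) and 0.088 (adjusted p = 0.834). Against the day 18 control alone the late change of Cd74 was -0.025.

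**Figure D5:**
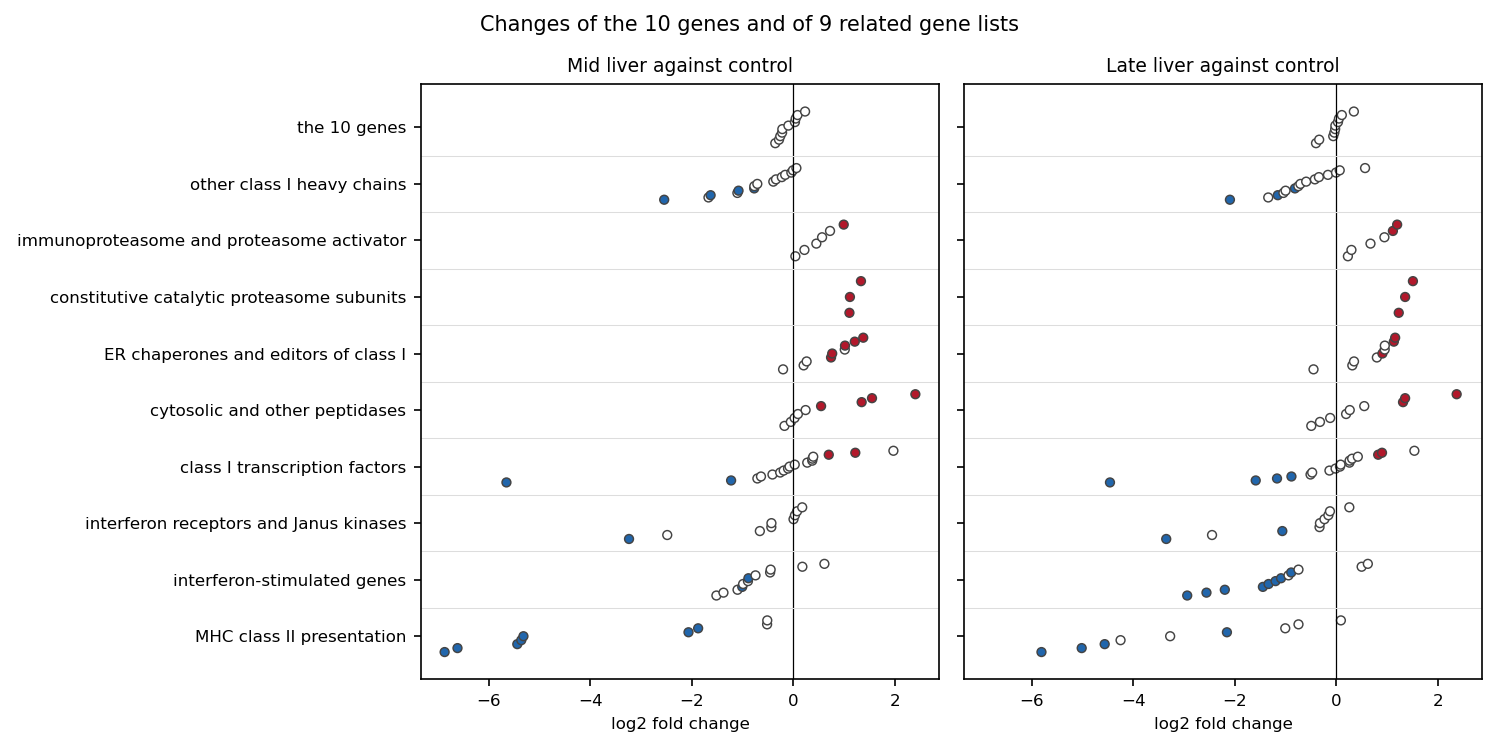
Each row is a list of genes, with the 10 genes at the top, and each point is the log2 fold change of 1 gene in mid liver (left) and late liver (right) against control. Filled red points were called higher and filled blue points lower, and no point of the 10 genes is filled.

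The promoters of the 10 genes were read for letters that such factors bind. RefSeq windows were held here for 8 of the 10 genes, not for Tap2 and Nlrc5. The starts are those of RefSeq, and for H2-D1 the bases shown lie inside the gene span given above. The 200 bases before the start are shown for both classical heavy chains, the light chain and Tap1 (GRCm38.p6), with capitals at each match, on either strand, of CCAAT (NF-Y), TGACG (the core of the X2 box, bound by CREB and ATF factors), GAAACT (part of an interferon-stimulated response element) and GGGATTCCC (NF-kB).
H2-K1 (chr17:34000348-34000547, minus strand): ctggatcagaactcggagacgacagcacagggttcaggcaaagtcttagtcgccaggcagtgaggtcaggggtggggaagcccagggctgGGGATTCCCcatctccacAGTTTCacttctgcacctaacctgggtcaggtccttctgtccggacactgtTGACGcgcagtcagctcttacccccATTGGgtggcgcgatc
H2-D1 (chr17:35262894-35263093, plus strand): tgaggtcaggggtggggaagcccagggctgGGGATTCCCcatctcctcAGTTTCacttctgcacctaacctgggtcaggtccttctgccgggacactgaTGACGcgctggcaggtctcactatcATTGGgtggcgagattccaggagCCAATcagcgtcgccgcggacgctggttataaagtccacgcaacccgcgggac
B2m (chr2:122147487-122147686, plus strand): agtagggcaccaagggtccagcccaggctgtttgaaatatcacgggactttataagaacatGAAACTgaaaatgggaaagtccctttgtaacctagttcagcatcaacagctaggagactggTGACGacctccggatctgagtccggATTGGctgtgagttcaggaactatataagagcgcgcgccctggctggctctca
Tap1 (chr17:34187356-34187555, plus strand): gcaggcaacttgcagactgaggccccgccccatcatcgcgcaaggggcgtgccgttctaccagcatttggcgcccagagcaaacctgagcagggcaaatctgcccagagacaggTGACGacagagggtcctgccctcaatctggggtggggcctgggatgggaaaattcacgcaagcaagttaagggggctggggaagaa
In the 250 bases before the start, searched on both strands, CCAAT occurred in 7 of the 8 genes and in 33.8% of 32851 promoters, and TGACG in 5 of 8 and in 17.8%. GAAACT occurred in 4 of 8 (H2-K1, H2-D1, B2m and H2-Q7) and in 13.5%. GGGATTCCC occurred in 3 of 8 (H2-K1, H2-D1 and H2-Q7) and in 0.301%. The promoters of H2-K1, H2-D1 and H2-Q7 are related in sequence, so these matches are not independent. A match describes letters and does not show that a factor is bound.

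Tap1 and Psmb9 share a promoter region. Their starts lie 226 bases apart on opposite strands. Psmb9 was called higher at the late time point and Tap1 was not, so the ratio of their CPM was taken in each library. Psmb9 over Tap1 was 0.752, 0.431 and 0.586 in control, 0.512 and 0.458 in early, 1.25, 0.626 and 0.717 in mid and 1.57 and 0.767 in late liver. It was 0.453 and 0.625 in early spleen, 0.638 in mid spleen and 0.645 in undivided cells. Both late ratios were above all control ratios. Every mid ratio was above the controls of its own series, and the mid ratios overlapped with the controls only through the TG control, whose ratio was above that of both XC mid libraries. A ratio above both XC controls was thus not particular to liver, as the second early spleen, the mid spleen and the undivided library had it too. The mid spleen and undivided ratios were also above that of the second mid liver library. The ratio was chosen after these calls were seen, so it is given only as a description.

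Genes with the most similar pattern were sought among 5882 well-expressed genes by Pearson's r of log2 CPM over the 14 low-input libraries. These points share the series and are no independent replicates, so the values are a description. H2-K1 was nearest to H2-M3 (r = 0.96), Rnf114 (r = 0.90), Rpl9-ps6 (r = 0.87), Ctsa (r = 0.86) and H2-DMa (r = 0.85), where H2-M3 encodes a class I heavy chain that presents formylated peptides. B2m was nearest to Psmb10 (r = 0.88), Arhgdib (r = 0.85), Lgals9 (r = 0.85), Lamtor2 (r = 0.85) and Ms4a4b (r = 0.84), where Psmb10 encodes a subunit of the immunoproteasome. Tap1 was nearest to Srebf1 (r = 0.88), Rinl (r = 0.85), Exoc7 (r = 0.84), Hvcn1 (r = 0.81) and Arfgap2 (r = 0.80), and Nlrc5 to Usp8 (r = 0.99), Tsc22d2 (r = 0.98), Traf3 (r = 0.98), Wrn (r = 0.98) and Ralgapa1 (r = 0.98). Nlrc5 was split by the series as described above.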

How the data were processed

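The deposited expected counts and TPM per transcript had been made by the authors with kallisto, whose version is not given in the sources used here, and the submitters' processing notes name mm10 and GRCm38. Transcripts (98.3%) were assigned to genes of GENCODE vM21 (GRCm38). The authors may have used another annotation. Estimated counts were summed over transcripts of a gene and over the sequencing runs of a library (26 runs, 15 libraries, with sample names ending in -2 taken as second runs) and rounded. The filter kept genes that had 10 or more counts in 6 or more libraries. edgeR 4.0.16 in R 4.3.3 (robust quasi-likelihood, TMM factors 0.723 to 1.22, group and series as terms) gave two-sided tests with Benjamini-Hochberg adjustment over all genes tested, 14616 in the fit of 11 control, undivided and liver libraries and 15465 in the fit of 14 that served the spleen and undivided comparisons. Comparisons share the controls. Alternatives included DESeq2 1.42.0, the study's tool. Scripts were tested on simulated data. Python 3.11.15 with pandas 2.3.3, scipy 1.17.1, Biopython 1.88 and matplotlib 3.10.9 made tables, alignments and plots. Levels between genes use the authors' TPM. Promoter sequences are from RefSeq. In each list the 3 most abundant genes and the 2 largest late changes past the threshold were named, apart from an item not reported here. Psme3, Canx, H2-T10, Cd1d2, Stat2, Irf9, Nfkb1 and Nfyb were named after their values were seen. The members and lists were chosen with earlier results of these data known. Runs of 1 library differed less (mean chi-square per gene 1.85 to 25.0) than libraries of a group (61.9 to 497), so no library was counted as a duplicate.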

Additional observations from a re-analysis of the deposited data

Results flagged for a closer look

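H2-Q4, a class I heavy chain gene that shares sequence with H2-K1 and H2-D1, stood out in the oligo-dT library of naive cells, which entered no comparison. It had 694.9 CPM there, against 47.1 CPM in the low-input library taken as the same control and 96.2 CPM in the highest control. This is 1 library with no replicate, and the part of library preparation was not tested.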

How the results depend on the processing

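The count of 0 called genes among the 10 was the same in all 123 alternative fits over the 9 comparisons, but 77 of these called at most 1 gene of all tested and say nothing of the 10, while 46 called more. Of the 1230 log2 fold changes in them 164 had the other sign and 93 moved by at least 1 SE, 10 had an unadjusted p under 0.05, and the smallest adjusted p was 0.0627 (H2-K1, mid liver, no scaling beyond library size). Scaling by library size alone, the day 18 control alone and the test of the series were added after the data were seen. Over all genes, leaving out the series term gave 1388 calls at the mid and 2699 at the late time point, day 0 controls alone 2361 and 4143, and the day 18 control alone 1 and 0. With each compared library left out in turn, calls ranged from 0 to 3157 for mid liver, 0 to 4143 for late liver and 0 to 1903 for early liver. With no count filter 1483 genes were called in early liver against control, 434 in late against mid liver, 643 in early spleen against control, 984 in early liver against early spleen, 631 in mid spleen against control, 756 in mid liver against mid spleen and 223 in undivided cells. DESeq2 gave 11 for mid spleen against control and 17 for mid liver against mid spleen, and the libraries of both groups alone gave 4 for late against mid liver. The causes were not tested. No paired analysis was possible because the labels give no replicate numbers shared between groups. Precision rested on 1 to 3 libraries a group, and the sources of the spread were not separated.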

Other observations

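The oligo-dT library of naive cells was set beside the low-input library of the first control, whose name it carries. H2-D1 had 2452 CPM against 6044 CPM and H2-T23 433 CPM against 755 CPM. Nlrc5 had 236 CPM against 123 CPM and Erap1 149 CPM against 82.3 CPM. H2-K1 had 3610.3 CPM against 4628 CPM, and Tap1 283 CPM against 289 CPM. These are single libraries with no replicate.

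Between the runs of 1 library, over 11 libraries with 2 runs, the largest log2 difference of any of the 10 genes was 0.48. It was that of B2m in the first mid liver library.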
